A study of Mus musculus with 4 samples.

Results

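Chromatin accessibility around 40 genes of the Wnt pathway was measured by ATAC-seq in im-scWAT cells, an immortalised preadipocyte culture from mouse subcutaneous white adipose tissue. The genes were 19 Wnt ligands, 12 receptors and co-receptors (Fzd1 to Fzd10, Lrp5 and Lrp6), 7 secreted inhibitors (Sfrp1, Sfrp2, Sfrp4, Sfrp5, Dkk1, Dkk2 and Dkk3), and the target Axin2 with the transcription factor Tcf7l2, out of 22238 protein-coding genes of the mm9 annotation. Every peak whose summit lay within 50 kb of a transcription start site (TSS) of one of them was taken. Peaks of the 4 libraries that shared at least 1 bp were merged into a site, which gave 372 sites near the 40 genes among 75576 near any protein-coding gene and 100904 in all. Of the 372 sites, 161 lay near ligands, 118 near receptors, 53 near inhibitors and 40 near Axin2 or Tcf7l2, and none was shared between these roles. Fzd10 had no peak in any library.

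There were 4 libraries, 1 per group and without replicates: Jmjd1a +/+ (WT) and Jmjd1a HY/HY (HY) cells, each before differentiation (D0) and on day 8 of differentiation into beige adipocytes (D8). In HY cells both copies of Jmjd1a carry a histidine-to-tyrosine change that removes the histone H3 lysine 9 demethylase activity of the protein, and peak lists cannot check this genotype. Both D8 cultures had received the same induction mixture of indomethacin, dexamethasone, 3-isobutyl-1-methylxanthine, rosiglitazone, insulin and T3 for 2 days, then insulin, T3 and rosiglitazone for 6 days. Both genotypes were stromal vascular cells immortalised with SV40 large T antigen, 1 culture for each genotype, so the allele and the culture cannot be told apart. All differences below are between these libraries, and no test between conditions was run, as each group has 1 library. The intervals are exact 95% intervals that cover counting error only. In such bulk samples a change in the share of open cells and a change within each cell cannot be told apart.

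Wnt ligands bind a Frizzled receptor together with Lrp5 or Lrp6, which keeps beta-catenin from being degraded and lets it act with TCF/LEF factors such as Tcf7l2 on targets that include Axin2. Secreted Frizzled-related proteins (Sfrp) bind the ligands, and Dickkopf proteins such as Dkk1 bind the co-receptors. Canonical Wnt signalling, for which Wnt10b is the best known ligand in fat, holds preadipocytes in an undifferentiated state.

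The sequences that carry the comparisons below run from 100 bases before to 100 bases after the strongest summit of 9 sites in mm9, on the plus strand, 5′ to 3′. They comprise the Sfrp1 promoter and the tallest Dkk3 site, which were open in all libraries and lower at D8, and the tallest site with a peak on only 1 day in both genotypes near inhibitors, receptors, ligands, and Axin2 or Tcf7l2. The tallest day 0 ligand site is not printed, and the Sfrp1 promoter was added after its values were seen. Capitals mark matches to 5 motifs searched on both strands: CTTTGAT for TCF/LEF, TGANTCA for AP-1, TTGCNNAA for C/EBP, CCCNNGGG for EBF and ACANNNTGT for the glucocorticoid receptor. Distances are from the nearest TSS of the gene and are negative upstream.
Sfrp1 promoter, chr8:24521761-24521961: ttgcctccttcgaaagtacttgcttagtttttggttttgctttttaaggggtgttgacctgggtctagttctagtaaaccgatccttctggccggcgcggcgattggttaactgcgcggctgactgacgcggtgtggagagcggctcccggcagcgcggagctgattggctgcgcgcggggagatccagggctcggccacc
Dkk3 site at -43303 bp, chr7:119345774-119345974: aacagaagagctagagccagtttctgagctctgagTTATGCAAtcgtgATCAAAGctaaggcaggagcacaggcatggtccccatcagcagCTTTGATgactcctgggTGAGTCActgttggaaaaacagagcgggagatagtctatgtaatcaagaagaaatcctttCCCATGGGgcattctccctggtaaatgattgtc
Dkk3 site at -41903 bp, chr7:119344374-119344574: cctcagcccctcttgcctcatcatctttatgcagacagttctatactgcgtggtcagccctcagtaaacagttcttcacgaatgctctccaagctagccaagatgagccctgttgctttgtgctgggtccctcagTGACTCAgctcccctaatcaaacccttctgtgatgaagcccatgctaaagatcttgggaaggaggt
Sfrp4 site at -262 bp, chr13:19714611-19714811: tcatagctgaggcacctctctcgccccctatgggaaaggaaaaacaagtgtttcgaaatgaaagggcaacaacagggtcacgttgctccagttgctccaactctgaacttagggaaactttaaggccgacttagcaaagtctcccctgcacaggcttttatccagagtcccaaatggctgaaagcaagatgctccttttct
Fzd4 site at -17510 bp, chr7:96535266-96535466: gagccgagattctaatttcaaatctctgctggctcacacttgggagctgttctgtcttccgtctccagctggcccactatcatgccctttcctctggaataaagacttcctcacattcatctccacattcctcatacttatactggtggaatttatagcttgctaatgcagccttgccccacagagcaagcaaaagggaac
Lrp5 site at 43782 bp, chr19:3642682-3642882: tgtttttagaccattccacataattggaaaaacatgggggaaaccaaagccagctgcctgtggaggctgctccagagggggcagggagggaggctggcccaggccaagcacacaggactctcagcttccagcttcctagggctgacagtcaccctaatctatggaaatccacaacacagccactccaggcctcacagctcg
Wnt8b site at -34623 bp, chr19:44533239-44533439: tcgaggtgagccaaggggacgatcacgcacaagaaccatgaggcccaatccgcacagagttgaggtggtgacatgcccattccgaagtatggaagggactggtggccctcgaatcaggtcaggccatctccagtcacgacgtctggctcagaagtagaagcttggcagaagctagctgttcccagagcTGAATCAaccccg
Axin2 site at 46582 bp, chr11:108851417-108851617: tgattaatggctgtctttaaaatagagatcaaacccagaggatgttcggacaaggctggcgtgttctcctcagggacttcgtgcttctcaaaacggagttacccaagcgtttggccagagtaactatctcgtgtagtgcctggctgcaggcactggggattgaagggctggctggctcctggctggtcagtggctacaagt
Tcf7l2 site at 24407 bp, chr19:55841642-55841842: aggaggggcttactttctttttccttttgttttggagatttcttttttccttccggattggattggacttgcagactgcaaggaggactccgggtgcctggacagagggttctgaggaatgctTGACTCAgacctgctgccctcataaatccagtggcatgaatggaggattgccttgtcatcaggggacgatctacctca

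The lists held 41228 to 77994 peaks and differed in depth. The genome-wide background rate, which is proportional to the tags used, was 0.659 (D0) and 0.531 (D8) in WT cells and 0.708 (D0) and 0.494 (D8) in HY cells, and a peak at that rate needed a pileup of at least 5 overlapping tags, or 4 in HY D8. Chromosome Y held 1 peak in each WT list and 7 and 6 in the HY lists. Adipocyte marker promoters had a peak in 3 of 8 genes at D0 and 7 of 8 at D8 in both genotypes, with Adipoq, Fabp4, Plin1 and Cidec open only at D8. Preadipocyte marker promoters had a peak in 6 of 6 genes in WT D0, 5 in HY D0 and 2 in each D8 list. No blood, epithelial or muscle marker had a promoter peak. Of 4 endothelial markers, Kdr had pileups of 21 in both D0 lists, a pileup of 4 in HY D8 and no peak in WT D8, and Pecam1 had 9 in WT D0. The part of these other marker promoters in the results was not tested.

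The first comparison asked how accessibility near the Wnt genes changed during differentiation. Most of these genes lost peaks in both genotypes: 31 of 40 (77.5%) had fewer peaks at D8 than at D0 in both WT and HY, against 50.2% of all protein-coding genes. Part of this gap lies in genes that have no peak to lose or kept their number: 2.5% of the 40 genes and 15.9% of all genes had no peak in WT D0. Among genes whose number changed, it was lower at D8 for 89.7% of 39 in WT and 84.2% of 38 in HY, against 82.3% and 81.6% of all protein-coding genes. Only Wnt8b, Fzd4 and Fzd8 gained peaks in both (7.5%, against 6.94% of all genes). The inhibitors fell in number most evenly, with 7 of 7 lower in both genotypes, against 16 of 19 ligands and 7 of 12 receptors. The median gene had 7 (D0) and 3 (D8) peaks in WT cells and 7 (D0) and 4 (D8) in HY cells, and the median over all protein-coding genes was 5, 3, 6 and 4.

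**Figure D1:**
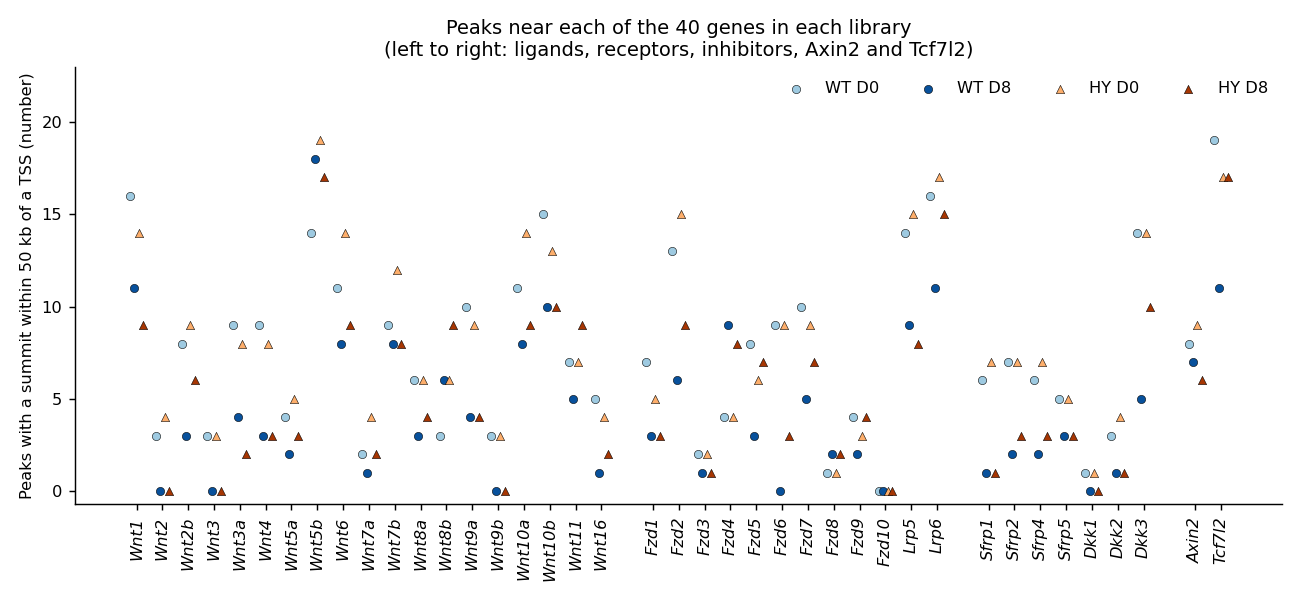
Number of peaks with a summit within 50 kb of a TSS of each gene, 1 point per library, with WT as circles and HY as triangles and day 8 in the darker colour. All 7 inhibitors have fewer peaks at D8 in both genotypes, Wnt8b and Fzd4 have more, and Wnt5b has the most peaks of the ligands in 3 of the libraries.

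Counted by site, 299 sites near the 40 genes had a peak on either day in WT. Of these, 158 (52.8%, 47.0 to 58.6) had a peak at D0 only, where 48.4% of all sites did, and 41 (13.7%, 10.0 to 18.1) had a peak at D8 only, where 12.2% of all sites did. In HY, 146 of 327 sites (44.6%, 39.2 to 50.2) had a peak at D0 only against 45.4% of all sites, and 51 (15.6%) at D8 only against 13.6%. These shares of all sites lie within the counting intervals. When peaks had to reach a -log10 q of 5, 126 of 225 sites in WT (56.0%, 49.2 to 62.6) had a peak at D0 only. In HY 138 of 246 (56.1%, 49.7 to 62.4) did. Both intervals lie above the shares of all sites at this setting, 48.3% and 48.0%. The D8 lists are shorter. With every list cut to its 41228 strongest peaks, the D0-only share fell to 31.6% in WT and 31.2% in HY and the D8-only share rose to 28.2% and 26.9%, where all sites gave 27.3% and 26.3% at D0 only and 25.6% and 25.0% at D8 only.

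Near inhibitors, 31 of 44 WT sites (70.5%, 54.8 to 83.2) had a peak at D0 only and 3 (6.82%, 1.43 to 18.7) at D8 only, and in HY these were 27 of 46 (58.7%, 43.2 to 73.0) and 3 (6.52%, 1.37 to 17.9). The WT interval for D0-only inhibitor sites lies above the 48.4% of all sites, whereas the HY interval includes its background of 45.4%. With lists of equal length, 13 of 26 inhibitor sites in WT had a peak at D0 only (29.9 to 70.1%, against 27.3% of all sites). In HY 11 of 25 did (24.4 to 65.1%, against 26.3%), so that the HY interval again includes its background. It does so too at a -log10 q of at least 5 (46.5 to 80.3%, against 48.0%) and within 20 kb (40.7 to 82.8%, against 41.9%). With an overlap of 50% of the peak both intervals lie above all sites. In WT 34 of 44 (62.2 to 88.5%) were at D0 only, against 61.2%, and in HY 35 of 46 (61.2 to 87.4%), against 59.5%. Ligand sites were at D0 only in 45.2% of cases in both genotypes, and receptor sites in 56.1% in WT and 41.2% in HY. This gap between genotypes at the receptors was absent at a -log10 q of at least 5, where the shares were 58.2% in WT and 57.8% in HY. It remained with an overlap of 50% (69.4% in WT, 54.9% in HY), lists of equal length (41.1% and 34.8%) and a 20 kb window (46.7% and 38.8%). In all these settings the counting intervals of the genotypes overlap. With lists of equal length the ligands had fewer D0-only than D8-only sites. The D0-only share was 18.1% in WT (10.5 to 28.0) and 25.3% in HY (16.7 to 35.5), where all sites gave 27.3% and 26.3%. The D8-only share was 32.5% in WT (22.6 to 43.7) and 30.8% in HY (21.5 to 41.3), where all sites gave 25.6% and 25.0%. All these intervals include the shares of all sites. Axin2 and Tcf7l2 together had the highest share of D8-only sites, 8 of 33 (24.2%, 11.1 to 42.3) in WT and 9 of 33 (27.3%, 13.3 to 45.5) in HY, and both intervals include the shares of all sites, 12.2% and 13.6%. Within 20 kb of a TSS 2 of 15 in WT and 1 of 15 in HY were at D8 only, where 12.1% and 13.2% of all sites were.

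**Figure D2:**
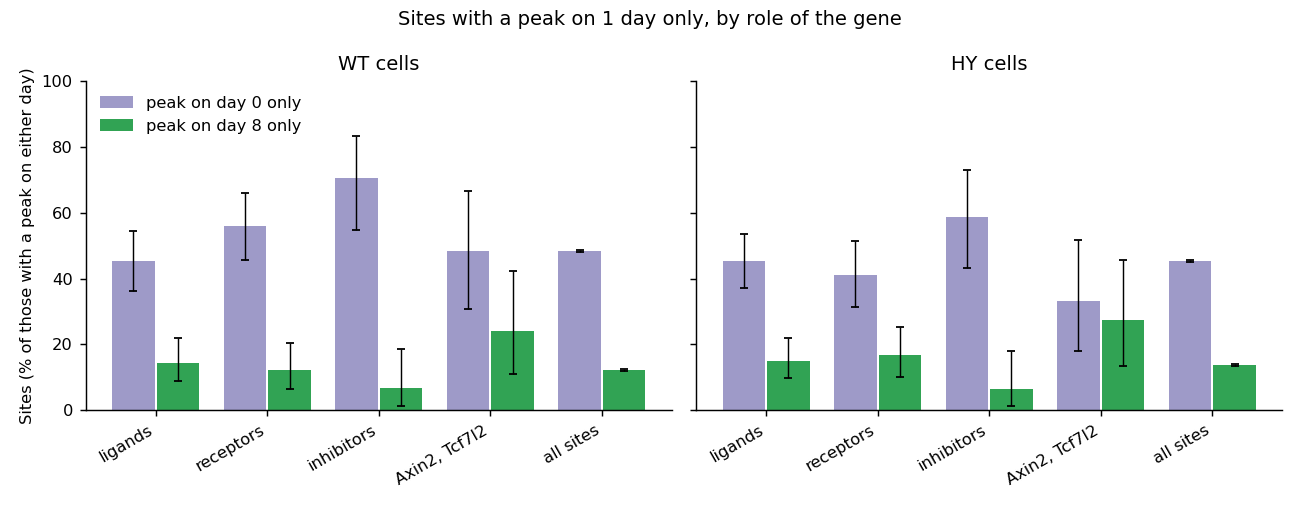
Share of sites with a peak on day 0 only and on day 8 only, in percent of the sites with a peak on either day, by role of the gene and for all sites near protein-coding genes, in WT and HY cells. Bars are shares and whiskers exact 95% binomial intervals of counting error. The D0-only bar is tallest for the inhibitors in both genotypes, 70.5% in WT and 58.7% in HY.

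Inhibitor sites also stood lowest at D8 among sites with a peak on both days. Height is given as the summit pileup divided by the background rate of its library, and D8 is set against D0 as a log2 ratio. The median ratio was -0.64 over 10 inhibitor sites in WT and -0.80 over 16 in HY, where the median over all sites was -0.14 in both. It was -0.35 and -0.30 at ligand sites, and -0.03 at receptor sites in both genotypes. Of the inhibitor sites, 2 of 10 were higher at D8 in WT and 1 of 16 in HY, where 39.6% and 41.1% of all sites were. Receptor sites gave 15 of 31 in WT and 21 of 43 in HY, and ligand sites 12 of 50 and 19 of 58. Sites near Axin2 or Tcf7l2 gave 2 of 9 in WT and 6 of 13 in HY. In WT the inhibitor share was thus close to those of the ligands and of Axin2 and Tcf7l2. When heights were scaled instead by the median of sites open in all 4 libraries, the median over all sites moved to 0.24 in WT and 0.07 in HY, and ligand sites changed sign in WT (0.03) but not in HY (-0.10). Inhibitor sites stayed below 0 under this scaling (-0.27 and -0.60), and receptor sites lay above it (0.35 and 0.17). Single ratios of D8 over D0 given below become 1.30 times larger in WT and 1.15 times larger in HY under this scaling, and the text says where their interval then includes 1.

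**Figure D3:**
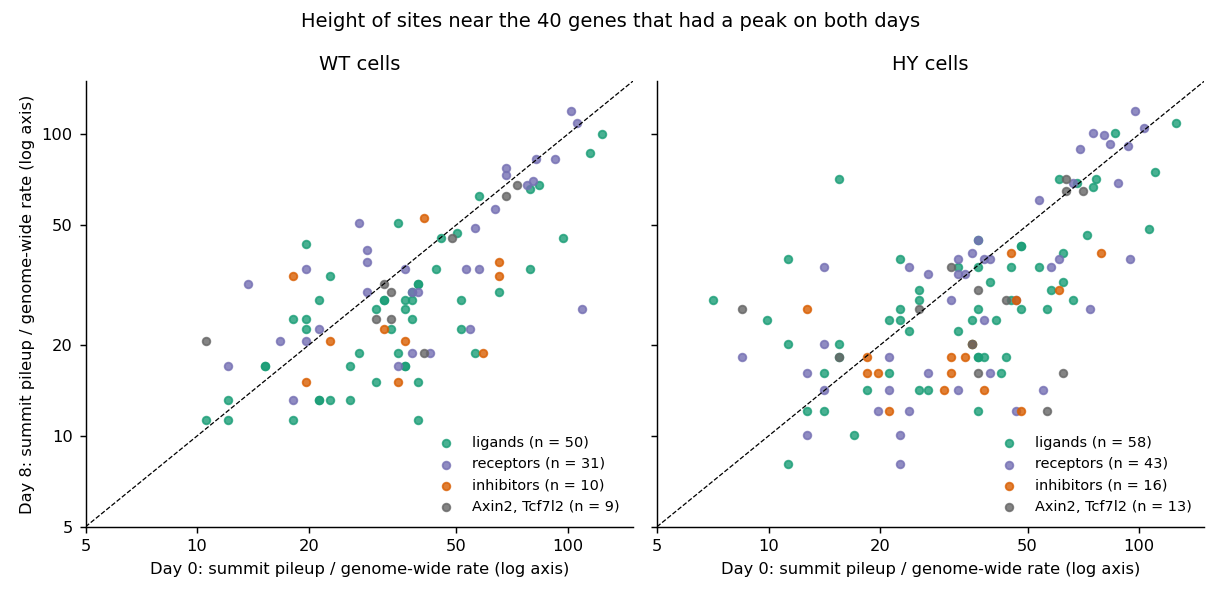
Summit pileup over the genome-wide background rate on day 8 against day 0, both on log axes, for sites near the 40 genes that had a peak on both days in WT (left) and HY (right) cells, coloured by role. The dashed line marks equal height. Inhibitor sites lie mostly below the line (8 of 10 in WT and 15 of 16 in HY). Among the tallest receptor sites, the Fzd7 promoter lies along it and the Fzd2 site at 39599 bp far below it (D8 over D0 of 0.241 in WT and 0.406 in HY).

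Among the inhibitors, Sfrp1, which encodes a secreted protein that binds Wnt ligands, had the tallest inhibitor promoter. The site at -113 bp (chr8:24521587-24522090) had pileups of 43 (D0) and 18 (D8) in WT cells and 43 (D0) and 15 (D8) in HY cells. Both D8 pileups were below both D0 pileups. Relative to the background rate, D8 was 0.52 times D0 in WT (0.282 to 0.92) and 0.50 times in HY (0.258 to 0.917), and scaled by sites open in all libraries it was 0.674 (0.366 to 1.19) and 0.576 (0.297 to 1.06), so these intervals include 1. The promoter was the only Sfrp1 peak at D8, whereas 6 peaks in WT and 7 in HY were present at D0, among them a site at 42745 bp with D0 pileups of 26 in WT cells and 17 in HY cells.

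Dkk3, a divergent Dickkopf family member, had the most inhibitor sites, 14, and no promoter peak. Its tallest site at -43303 bp (chr7:119345738-119346716, intergenic) had pileups of 39 (D0) and 10 (D8) in WT cells and 56 (D0) and 20 (D8) in HY cells. D8 was 0.318 times D0 in WT (0.142 to 0.649) and 0.511 times in HY (0.291 to 0.866), and under the other scaling 0.413 (0.184 to 0.843) and 0.589 (0.335 to 0.997). The printed sequence of this site holds matches to TCF/LEF on both strands and 1 match each to AP-1, C/EBP and EBF. The flanking sites at -41903 bp (32 in WT D0, 40 in HY D0) and -45428 bp (24 in WT D0, 28 in HY D0) had no D8 peak in either genotype. All 3 of these sites were nearer to a TSS of Mical2 than to that of Dkk3. In an intron of Dkk3, the site at 20403 bp had pileups of 43 (D0) and 20 (D8) in WT cells and 33 (D0) and 14 (D8) in HY cells, with D8 over D0 ratios of 0.577 (0.322 to 1.00) and 0.608 (0.30 to 1.17). Under the other scaling the WT ratio was 0.749 (0.418 to 1.3), an interval that includes 1.

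The genotypes kept different numbers of Dkk3 peaks at D8, 5 in WT and 10 in HY, after 14 in each at D0. The sites at 3624, 10822, -21325 and -24436 bp had peaks in both D0 lists and in HY D8 but not in WT D8. Their HY D8 pileups were 7, 7, 9 and 8, close to the lowest that could be called.

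Sfrp2, which like Sfrp1 encodes a secreted Wnt-binding protein, went from 7 peaks at D0 in both genotypes to 2 in WT D8 and 3 in HY D8. Its tallest D0-only site at -10466 bp (chr3:83559189-83559955) had a pileup of 27 in both D0 lists, and the site at -1885 bp had 17 in both. Its promoter had a peak in WT D0 only, of 11. A small site at 21317 bp had a peak at D8 only, with a pileup of 6 in both genotypes.

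The Sfrp4 promoter region held 2 separate sites. The site at -262 bp (chr13:19714569-19714748) had a peak at D8 only, at a pileup of 8 in WT and of 9 in HY. The other, 115 bp away, at -68 bp, had a pileup of 15 at D0 and 6 at D8 in HY cells, so among the 4 libraries only WT D0 had no peak at this promoter. The Sfrp4 site at -3247 bp was lower at D8 than at D0, with pileups of 23, 8, 34 and 6 (WT D0, WT D8, HY D0, HY D8).

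Dkk1, an inhibitor that binds Lrp5 and Lrp6, had a single weak peak at D0 in each genotype, at different places, and none at D8. Dkk2 went from 3 to 1 peak in WT and from 4 to 1 in HY, and its site at 2047 bp had pileups of 15, 11, 14 and 8 (WT D0, WT D8, HY D0, HY D8). Sfrp5, an inhibitor expressed in adipocytes, had 5 peaks at D0 and 3 at D8 in both genotypes. Of these 5 sites, 4 were nearest to Zfyve27.

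**Figure D4:**
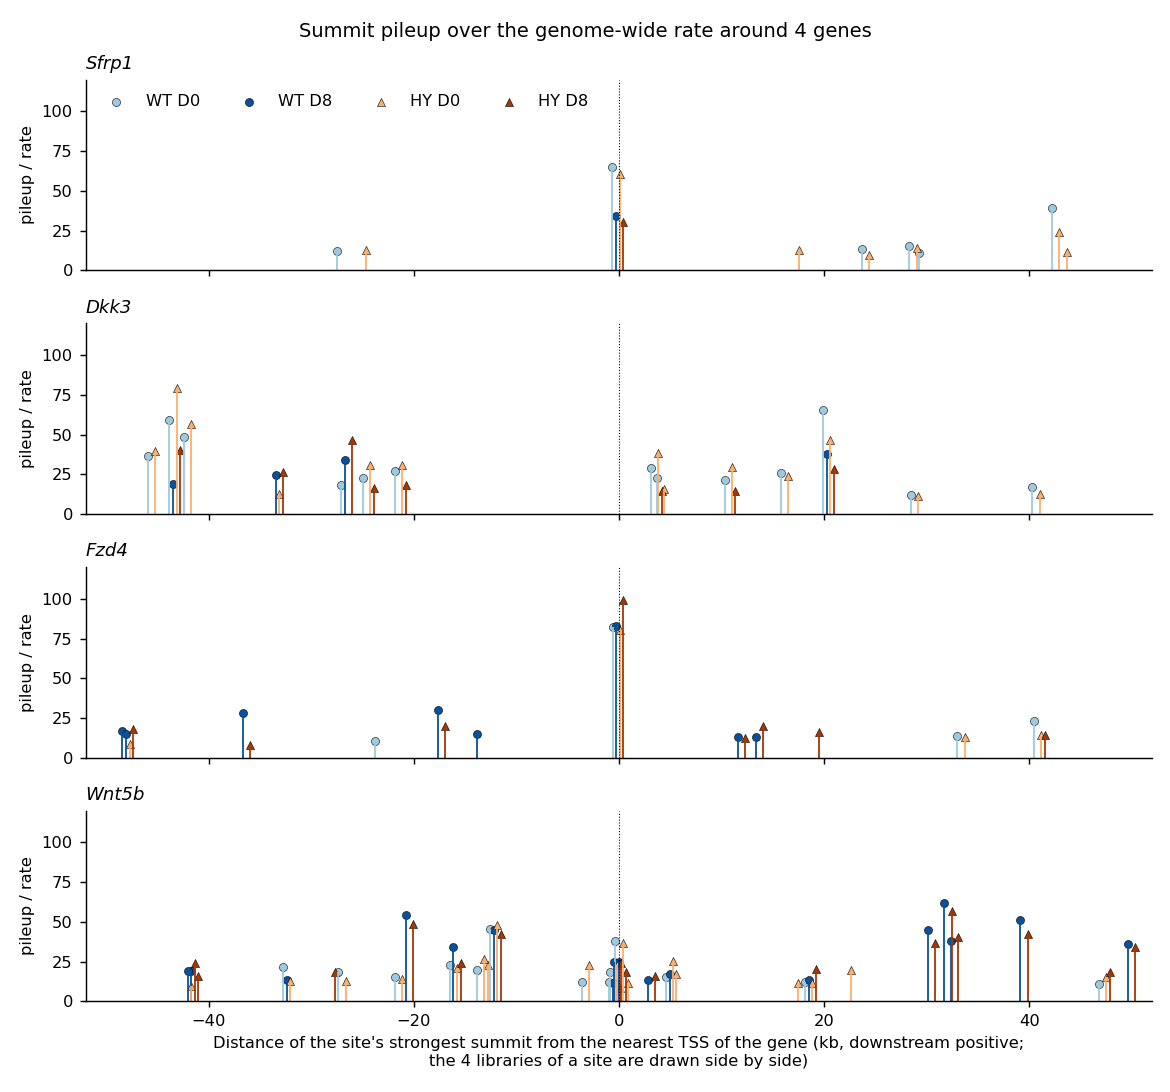
Summit pileup over the genome-wide background rate at every site within 50 kb of Sfrp1, Dkk3, Fzd4 and Wnt5b, against the distance of the site from the nearest TSS of the gene in kb, with the 4 libraries of a site side by side. The D8 points are absent from most Sfrp1 sites and low at the Dkk3 sites, whereas the Fzd4 promoter is level and D8-only sites appear around Fzd4 and Wnt5b. These 4 genes were chosen after their values were seen.

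Of the 12 receptor promoters, those of Fzd2, Fzd3, Fzd4, Fzd7, Fzd8, Fzd9 and Lrp6 had a peak in all 4 libraries. In a single library 8 or 9 of the 12 had one (66.7% or 75.0%, with intervals of 34.9 to 90.1 and 42.8 to 94.5 that include the share of all protein-coding genes, 48.4% to 50%). The Fzd7 promoter at -135 bp (chr1:59538137-59539429), the tallest of them, had pileups of 70 (D0) and 58 (D8) in WT cells and 73 (D0) and 52 (D8) in HY cells. Relative to the background rate its D8 height was 1.03 times D0 in WT (0.713 to 1.48) and 1.02 times in HY (0.701 to 1.48). Fzd4 was similar, with pileups of 54, 44, 57 and 49 in the same order and ratios of 1.01 (0.663 to 1.53) and 1.23 (0.823 to 1.84), and this site also covers the start of Tmem135.

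The Fzd2 promoter had pileups of 53, 37, 62 and 34 (WT D0, WT D8, HY D0, HY D8), and that of Fzd8 had 42, 30, 47 and 34. Both were lower at D8 in raw pileup, and the background rate was lower at D8 too. What part of the fall went with depth was not tested. Relative to that rate the log2 ratio of D8 over D0 at Fzd8 was -0.17 in WT and 0.05 in HY. Weaker promoter peaks were found at Fzd9 (24, 19, 27 and 19), Lrp6 (19, 22, 25 and 20) and Fzd3 (19, 16, 28 and 19). The Fzd1 peak at 39 bp had pileups of 51, 36, 59 and 46, but its centre lay too far downstream to be counted as a promoter peak, defined by a peak centre from 1000 bp before to 100 bp after a TSS. Likewise the Fzd5 peak of HY D0, with a summit pileup of 49 within 1000 bp of the start, was centred outside this window, and the other libraries had a Fzd5 promoter peak of 45 (WT D0), 41 (WT D8) and 44 (HY D8).

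Fzd6, a receptor of non-canonical Wnt signalling, lost every peak in WT cells. It had 9 peaks at D0 in both genotypes, none in WT D8 and 3 in HY D8. Its promoter had a pileup of 8 in WT D0 and no peak in WT D8, and it had 15 and 7 on the same days in HY. Of its 10 sites, 6 had a peak at D0 only in both genotypes, as 22.7% of all sites did.

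Away from the promoters, the Fzd2 site at 39599 bp (chr11:102505026-102505798, intergenic) had pileups of 72 (D0) and 14 (D8) in WT cells and 67 (D0) and 19 (D8) in HY cells. D8 was 0.241 times D0 in WT (0.126 to 0.432) and 0.406 times in HY (0.23 to 0.684), the largest fall among the named receptor sites with a peak on both days, and the intervals stayed below 1 under the other scaling. In contrast, the tallest receptor site, 46858 bp from Fzd5 and at the start of Ccnyl1 (chr1:64736857-64737784), had pileups of 67, 63, 69 and 59 (WT D0, WT D8, HY D0, HY D8).

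The co-receptors Lrp5 and Lrp6 had several intronic or downstream sites open only at D0. The Lrp5 site at 43782 bp (chr19:3642352-3642885, in an intron of Lrp5) had D0 pileups of 40 in WT cells and 45 in HY cells, and 7 of the 19 Lrp5 sites had a peak at D0 only in both genotypes, a pattern of 22.7% of all sites. The Lrp6 site at 20496 bp, in a coding exon, had D0 pileups of 16 in WT cells and 40 in HY cells, and that at 26792 bp had 24 and 36. Lrp5 had no promoter peak in any library, and a summit of 11 lay within 1000 bp of its start in HY D0 only.

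Fzd4, which encodes a receptor for Wnt ligands and for norrin, had the most D8-only sites of the receptors. Its peaks went from 4 to 9 in WT and from 4 to 8 in HY, and 4 of its 12 sites had a peak at D8 only in both genotypes, as 5.93% of receptor sites and 6.1% of all sites did. The tallest of these, at -17510 bp in an intron of Tmem135 (chr7:96535265-96535595), had D8 pileups of 16 in WT cells and 10 in HY cells. The site at -36497 bp had 15 and 4 in the D8 lists of WT and HY, and the 2 downstream sites at 11764 and 13487 bp had 6 to 10. These are low peaks compared with the Fzd4 promoter. Lrp5, Lrp6 and Fzd9 had 1 D8-only site each. The Lrp5 site at -9109 bp had D8 pileups of 10 in WT cells and 7 in HY cells, and the intronic Lrp6 site at 9840 bp had 11 and 9. The Fzd9 site was at 17861 bp in an intron of Baz1b, with D8 pileups of 14 in WT cells and 6 in HY cells. Fzd8 had a single site, its promoter, which was split into 2 peaks in both D8 lists.

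Among the ligands, Wnt10b is the ligand best known to block fat cell formation. Its site at -2183 bp (chr15:98610555-98611600, intergenic), which also lies within 50 kb of Wnt1, had pileups of 64 (D0) and 24 (D8) in WT cells and 75 (D0) and 24 (D8) in HY cells. D8 was 0.465 times D0 in WT (0.278 to 0.755) and 0.458 times in HY (0.277 to 0.734), and under the other scaling 0.604 (0.361 to 0.98) and 0.528 (0.319 to 0.846). The site at 6036 bp had a pileup of 25 in both D0 lists and no D8 peak. Wnt1 and Wnt10b share 15 sites, so their counts are not independent, and the same holds for Wnt6 with Wnt10a (14 sites), Wnt3a with Wnt9a (9) and Wnt3 with Wnt9b (4).

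Wnt2, Wnt3 and Wnt9b had 3 or 4 peaks at D0 and none at D8 in either genotype. The Wnt2 promoter had D0 pileups of 13 in WT cells and 16 in HY cells, and the site just upstream at -1151 bp had 22 and 19. Of the 40 genes, only Wnt2 had a promoter peak in both D0 lists and neither D8 list, and by the position of the summit Dkk2 did too, at a pileup of 9 in WT D0 and 10 in HY D0. Wnt5a, the main non-canonical ligand, kept its promoter peak but lower, with pileups of 20 (D0) and 8 (D8) in WT cells and 23 (D0) and 11 (D8) in HY cells, and ratios of 0.496 (0.189 to 1.18) and 0.685 (0.301 to 1.46) whose intervals include 1.

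The tallest ligand sites belonged to Wnt7b and kept much of their height. The site at -28984 bp (chr15:85440905-85442626, intergenic) had pileups of 82 (D0) and 53 (D8) in WT cells and 89 (D0) and 54 (D8) in HY cells, and that at -18308 bp had 76, 46, 78 and 37. Their ratios of D8 over D0 lay between 0.679 and 0.869, with intervals that include 1. Wnt7b had no promoter peak. Closer to its start, the site at -1375 bp had pileups of 34, 12, 41 and 15 and ratios of 0.438 (0.207 to 0.867) and 0.524 (0.269 to 0.967), whose intervals include 1 under the other scaling.

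Wnt11 and Wnt4, both mostly linked to non-canonical signalling, kept promoter peaks in all libraries, with pileups of 26, 17, 32 and 18 for Wnt11 and 14, 15, 15 and 8 for Wnt4 (WT D0, WT D8, HY D0, HY D8). So did Wnt1 (21, 15, 26 and 18), Wnt2b (13, 13, 9 and 6) and Wnt5b (12, 13, 16 and 12). A Wnt4 site at -45666 bp had a peak at D0 only, at a pileup of 27 in WT and of 21 in HY. Wnt9a had a promoter peak in WT D8 (14), HY D0 (16) and HY D8 (13), Wnt16 in WT D0 only (9) and Wnt7a in HY D0 only (7). No promoter peak was found at Wnt3, Wnt3a, Wnt6, Wnt8a, Wnt8b, Wnt9b or Wnt10a. Near Wnt10b, whose promoter peaks were centred outside the window, summits within 1000 bp had pileups of 12 in WT D0, 6 in WT D8 and 12 in HY D0.

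The D8-only sites of the ligands lay at a few loci. In both genotypes, 13 of 161 ligand sites (8.07%, 4.37 to 13.4) were open on D8 alone, near the 6.1% of all sites. Of the 13, 8 were near Wnt5b and 3 near Wnt8b, with 1 each near Wnt7b and Wnt11. Apart from those at 2966 bp from Wnt5b, 15154 bp from Wnt11 and -18061 bp from Wnt8b, they lay more than 20 kb from the gene. Counted in each genotype alone, 4 of 68 WT sites (5.88%) and 8 of 82 HY sites (9.76%) within 20 kb of a ligand gene were at D8 only, against 12.1% and 13.2% of all sites. The Wnt5b locus holds Adipor2, which encodes an adiponectin receptor, and 5 of the 8 sites were nearest to an Adipor2 start. The site 31895 bp from Wnt5b is the Adipor2 promoter itself (chr6:119367432-119367747) and had D8 pileups of 33 in WT cells and 28 in HY cells. In an intron of Wnt5b, the site at -20565 bp (chr6:119437704-119438115) had 29 and 24 in the D8 lists of WT and HY, and its nearest TSS was that of Fbxl14.

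The tallest D8-only ligand site lay at -34623 bp from Wnt8b (chr19:44533084-44533635), with D8 pileups of 40 in WT cells and 49 in HY cells. Wnt8b had no promoter peak, and its more distant site at -47496 bp, with 14 and 21 in the D8 lists of WT and HY, was nearest to Scd1, a desaturase gene of fat synthesis. Over all ligand D8-only sites, the nearest TSS was that of one of the 40 genes in 6 of 13 (46.2%), against 274 of all 372 sites (73.7%). The tallest D0-only ligand site, at -34036 bp from Wnt8a with D0 pileups of 35 in WT cells and 50 in HY cells, was likewise nearest to another gene, Fam13b.

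Axin2, a target and feedback inhibitor of canonical Wnt signalling, and Tcf7l2 kept their promoters. The Axin2 promoter at 58 bp (chr11:108781411-108782224, in an annotated UTR) had pileups of 32 (D0) and 24 (D8) in WT cells and 45 (D0) and 32 (D8) in HY cells. Relative to the background rate, D8 was 0.931 times D0 in WT (0.525 to 1.63) and 1.02 times in HY (0.626 to 1.64). The main Tcf7l2 promoter at -169 bp had pileups of 45, 33, 50 and 32, with ratios of 0.91 and 0.917, and the intronic site at -16542 bp had 48, 36, 45 and 35.

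Both genes also had sites of either day. An Axin2 site at 46582 bp (chr11:108851287-108851706, intergenic) had a pileup of 19 in both D8 lists and none at D0. Introns of Tcf7l2 held D8-only sites at 42297 bp (10 in WT, 16 in HY) and -24513 bp (15 and 11), and D0-only sites at 24407 bp (chr19:55841527-55842372, 18 and 36), 26304 bp (17 and 23) and -19851 bp (29 and 28).

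Of the 42 other Wnt pathway genes examined for comparison, such as secretion factors, destruction complex members and further antagonists, 28 had fewer peaks at D8 in both genotypes and 3 had more, where 50.2% and 6.94% of all protein-coding genes did. A promoter peak was found for 27 of them in WT D8 and for 30 in each of the other lists. The co-receptor gene Ptk7 was the only one with a promoter peak in both D0 lists (35 in WT, 41 in HY) and neither D8 list. Near these genes, 44.0% of WT sites and 42.3% of HY sites were at D0 only, and 9.92% and 11.9% at D8 only, all slightly below the shares of all sites (48.4% and 45.4% at D0 only, 12.2% and 13.6% at D8 only). For the 40 genes themselves, promoter peaks were counted at 21 (D0) and 19 (D8) in WT cells and 22 (D0) and 20 (D8) in HY cells. These are 52.5%, 47.5%, 55.0% and 50% of the 40 genes, near the 50%, 48.4%, 49.8% and 48.6% of all protein-coding genes. With lists of equal length the order of the days turned, with 16 (D0) and 19 (D8) in WT cells and 15 (D0) and 19 (D8) in HY cells. The share of all protein-coding genes at this setting is not given here, so this turn cannot be set against that of all genes.

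The second comparison set HY against WT cells on the same day. At D0, 63 of 321 sites (19.6%, 15.4 to 24.4) had a peak in HY only, against 19.9% of all sites, and 45 (14.0%, 10.4 to 18.3) in WT only, against 11.5%. At D8, 61 of 202 sites (30.2%, 24.0 to 37.0) had a peak in HY only, against 23.8% of all sites, and 21 (10.4%, 6.55 to 15.5) in WT only, against 9.48%. With lists of equal length the D8 shares near the Wnt genes were 21.7% and 20.6%, almost level, where all sites gave 16.4% and 14.6%. At sites with a peak in both genotypes, the median log2 ratio of HY over WT height was 0.05 (D0) and 0.10 (D8), below the 0.08 and 0.15 of all sites. Scaled by the sites open in all libraries these changed sign, to -0.03 and -0.15 near the Wnt genes and to -0.002 and -0.11 over all sites. Of the 372 sites, 6 had a peak on both days in HY and on neither in WT, and 2 the reverse (1.61% and 0.538%, against 0.926% and 0.299% of all sites).

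The genotype difference in peak number at D8 was largest at Tcf7l2 (11 in WT, 17 in HY), Dkk3 (5 and 10), Fzd5 (3 and 7), Wnt11 (5 and 9) and Lrp6 (11 and 15). All of these had more peaks in HY D8, whose list was longer overall (48964 peaks, against 41228 in WT D8). A pileup of 4 could be called in HY D8 and of 5 in WT D8. The share of all genes with such a difference was not counted. Some peaks called in HY D8 alone lay beside sites open in all libraries. A peak of 25 in HY D8 alone at -645 bp from Fzd5 stood 236 bp from the site of its promoter, and one of 24 at 632 bp from Fzd7 stood 181 bp from the promoter site. In HY D0 alone, a Wnt7b site at -21704 bp had a pileup of 24 and an intronic Tcf7l2 site at 4770 bp had 23. The tallest site found on both days in HY alone, at 584 bp from Fzd2 in its coding exon, had a pileup of 22 at D0 and 14 at D8. The tallest such ligand site, at 18486 bp from Wnt8b in a coding exon, had 5 at D0 and 14 at D8.

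The sequences within 100 bp of the strongest summit were compared with those of all sites. The AP-1 motif, bound by Fos and Jun factors, was found at 27 of the 85 sites near the 40 genes with a peak in both D0 lists only (31.8%), at 12 of 84 open in all libraries (14.3%) and at 2 of 26 with a peak in both D8 lists only. Among all sites the shares were 30.3%, 13.3% and 7.03%, so the Wnt sites followed the general pattern. The D0-only sites printed above for Dkk3 and Tcf7l2 carry this motif, as does the D8-only Wnt8b site, and that of Lrp5 does not. The C/EBP motif was present at 3 of the 26 D8-only sites (11.5%), all 3 near ligands, where 26.3% of all D8-only sites had it. TCF/LEF matches were found at 10 of 372 sites (2.69%), against 2.00% of all sites. The EBF motif was found at 9.68% of the sites and that of the glucocorticoid receptor at 4.84%, against 10.4% and 5.92% of all sites. The AP-1, EBF and glucocorticoid receptor motifs read the same on both strands, and a match describes the letters only.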

How the data were processed

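Peak lists in narrowPeak layout were used, 1 per library. According to the study's methods, reads were trimmed, aligned, freed of PCR duplicates and used to call peaks as in its ChIP-seq, where mm9 and, for transcription factors, MACS3 are named. The caller of the ATAC peaks is not given there, and the columns have the layout that MACS writes. The submitters' processing notes name Bowtie2, SAMtools, Picard and deepTools, and versions and the Tn5 shift are not given in the sources used here. The deposited fold enrichment is a ratio of summit pileup to local background. The -log10 p and -log10 q were also deposited by the authors, and their score column was not used. Pileup and background were solved from the fold and -log10 p (tolerance 0.002, solved for 100% of peaks), which was tested on simulated data, and the lowest background served as the rate of a library. Total tags are unknown. Genes, coordinates (1-based) and sequences came from the matching NCBIM37 (mm9) genome with GENCODE annotation, and 0 peaks lay beyond a chromosome end. Of a gene name with several identifiers the protein-coding one was used.

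A promoter peak was centred between 1000 bp before and 100 bp after a TSS. Named are, for each role, the 3 tallest sites in all 4 libraries, in both D8 lists only and in both D0 lists only, the 2 tallest of 1 genotype or of 1 library (pileup of at least 20), and members whose promoter state differed. Other sites named were chosen after their values were seen. Members, lists and motifs were chosen with earlier results of these data known. Alternatives were an overlap of 50%, a -log10 q of at least 5, equal list lengths, a 20 kb window, another scaling, and a promoter rule of a summit within 1000 bp. Python 3.11.15, pandas 2.3.3, NumPy 2.4.6, SciPy 1.17.1 and Matplotlib 3.10.9 were used.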

Additional observations from a re-analysis of the deposited data

Results flagged for a closer look

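Of the 40 genes, 4 changed their number of peaks from D0 to D8 in opposite directions in the 2 genotypes (10.0%), against 7.51% of all protein-coding genes. With 1 library per group, none of these differences was tested. Near Wnt5b the number of peaks changed by 4 in WT and by -2 in HY. Near Wnt11 it changed by -2 in WT and 2 in HY, near Fzd5 by -5 in WT and 1 in HY, and near Fzd9 by -2 in WT and 1 in HY. Of the 84 sites open in all libraries, 20 had a log2 ratio of height at D8 over D0 of opposite signs in the genotypes (23.8%), the same share as over all such sites (23.8%). Among the sites named by rule these were the Tcf7l2 site at -16542 bp (-0.10 in WT, 0.16 in HY) and the Axin2 promoter (-0.10 in WT, 0.03 in HY). Within 1000 bp of a start they were also the sites of Wnt4 (0.41 in WT, -0.39 in HY), Wnt2b (0.31 and -0.07), Fzd1 (-0.19 and 0.16), Fzd8 (-0.17 and 0.05), Fzd3 (0.06 and -0.04), Fzd9 (-0.03 and 0.01) and the Tcf7l2 site at -6 bp (0.01 and -0.63). The counting intervals of all these ratios include 1 in both genotypes. Scaled by sites open in all libraries, the signs stayed opposite only at Wnt4 (0.79 and -0.18) and at the Tcf7l2 site at -6 bp (0.38 and -0.42), and the ratios of the other sites given here were positive in both genotypes.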

How the results depend on the processing

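Cutting all lists to the same length moved the D8-only share of sites near the 40 genes to 28.2% in WT and 26.9% in HY, the D0-only share to 31.6% and 31.2%, the HY-only share to 14.5% at D0 and 21.7% at D8, and the WT-only share at D8 to 20.6%. All sites gave 25.6% and 25.0% at D8 only, 27.3% and 26.3% at D0 only, 14.4% and 16.4% in HY only, and 14.6% in WT only. An overlap of 50% of the peak moved the D0-only share to 66.2% in WT and 60.2% in HY, the HY-only share to 28.3% at D0 and 38.6% at D8, and the WT-only share at D0 to 18.4%. All sites gave 61.2% and 59.5% at D0 only, 28.7% and 32.3% in HY only, and 15.5% in WT only. A -log10 q of at least 5 moved the D0-only share in HY to 56.1% (48.0% of all sites) and that of HY receptor sites to 57.8%. It moved the WT-only share at D0 to 9.28% and the HY-only share at D8 to 22.0%, against 11.8% and 17.7% of all sites. The median log2 ratio of D8 over D0 moved to -0.19 in WT and -0.13 in HY, where all sites gave -0.098 and -0.055. A window of 20 kb moved the WT median to -0.19, where all sites gave -0.103. Scaling by sites open in all libraries moved the medians to 0.0773 (WT, D8 over D0), -0.078 (HY, D8 over D0), -0.0344 (HY over WT, D0) and -0.152 (HY over WT, D8). All sites gave 0.241, 0.065, -0.002 and -0.106 in the same order. A share was counted as moved when it left its 95% interval and a median when it changed sign or by over 0.1. Promoter counts of the 40 genes lay between 15 and 26 over all settings and libraries. Equal list lengths turned their order between days, from 21 (D0) and 19 (D8) to 16 and 19 in WT and from 22 and 20 to 15 and 19 in HY, and took the ligand promoters of HY D0 from 9 to 4. No share of all protein-coding genes is given for this setting. Depth limits what a missing peak shows: a site without a peak may hold up to the pileup that could be called. D0 and D8 were compared within each genotype, and no paired test was run, as there was 1 library per group and the labels give no replicate numbers.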
